A study of Mus musculus with 2 samples.

Results

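Expression of 10 genes of the AP-1 and EGR immediate early factors was compared between bone marrow derived macrophages labelled beta-catenin deficient and control macrophages. The genes were Fos, Fosb, Fosl1, Fosl2, Jun, Junb, Jund, Egr1, Egr2 and Egr3, chosen by name, and they were 10 of the 19863 genes that the table gave with a single symbol. Each was read by 1 transcript cluster, the set of probes along a gene. Both groups came from mice aged 8 weeks. In both, flushed marrow was cultured with conditioned medium of L929, a fibroblast line of the mouse whose secreted CSF1 (macrophage colony-stimulating factor) drives macrophage growth. There was 1 control array and 1 array of the group labelled beta-catenin deficient. The mouse strain, the deleted exons, the Cre driver, the pooling of animals and the time from the last change of medium to harvest were not given in the sources used here.

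Immediate early genes are transcribed within minutes of a stimulus such as CSF1, because the factors that switch them on are already present and need only be phosphorylated by MAP kinases. FOS and JUN proteins pair through leucine zippers to form AP-1, which binds the motif TGANTCA. JUN proteins can also pair with each other, whereas FOS proteins need a JUN partner. EGR proteins bind GC-rich DNA through zinc fingers and are held in check by the corepressors Nab1 and Nab2. In the myeloid lineage EGR factors are known for promoting the macrophage over the neutrophil fate. Jun and Fosl1 have been described as targets of beta-catenin and TCF in tumour cells, and the comparison asks which genes differ where beta-catenin is lacking.

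Values are log2 expression values from RMA, which subtracts background, puts the arrays on a common scale and combines a cluster's probes into 1 number. Each difference is the array labelled deficient minus control, so 1 means 2-fold. With 1 array in each group there is no replicate error and no test, and every direction is that of these 2 arrays alone. A gene is counted as higher or lower when its difference is 1.5-fold or more, 0.58 in log2 units, and its brighter value reaches 7.28. That floor is the table's median value, and 10657 genes reached it, all 10 members among them. The median difference over the 10657 genes was -0.08.

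Beta-catenin's own gene was not lower where it is labelled deficient. Ctnnb1 was 11.3 in control and 11.4 in the other array, a difference of 0.15, and probes outside a deleted part would check nothing. The feedback target Axin2 was 7.61 in control and 5.97 in the other, the latter under the floor. The second sample is therefore called the array labelled deficient, and each direction rests on that label. Of the macrophage markers 10 of 10 measured were at or above the floor, with a mean log2 level of 11.6 in control and 11.7 in the array labelled deficient. Most markers of stromal cells (14 of 17) and of neutrophils (11 of 16) were counted as higher in the latter. Of all genes at the floor 7.54% were. Fewer cells of a type and less RNA per cell cannot be told apart in such bulk samples.

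The promoters of Egr2 and Fosb, the members with the largest differences in each direction, are printed beside that of Fos, the prototype of the group, to show the letters around the start of each gene. They come from a set of RefSeq promoter windows on GRCm38.p6 that held windows for 7 of the 10 members, not for Fosl1, Egr1 and Egr3. Each runs 5′ to 3′ in the direction of the gene from 250 bases before the annotated start to 50 after it, with position 0 the start. Capitals mark matches to the motifs searched, given after the sequences. The Egr2 window is chr10:67537619-67537918 on the + strand, Fosb is chr7:19309996-19310295 on the - strand, and Fos is chr12:85473640-85473939 on the + strand.
Egr2: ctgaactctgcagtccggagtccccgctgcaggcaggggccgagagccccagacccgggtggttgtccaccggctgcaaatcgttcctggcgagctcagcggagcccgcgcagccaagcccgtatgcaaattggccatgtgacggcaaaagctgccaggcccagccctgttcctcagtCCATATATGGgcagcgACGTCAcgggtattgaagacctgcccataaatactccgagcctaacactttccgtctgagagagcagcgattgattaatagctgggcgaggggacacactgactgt
Fosb: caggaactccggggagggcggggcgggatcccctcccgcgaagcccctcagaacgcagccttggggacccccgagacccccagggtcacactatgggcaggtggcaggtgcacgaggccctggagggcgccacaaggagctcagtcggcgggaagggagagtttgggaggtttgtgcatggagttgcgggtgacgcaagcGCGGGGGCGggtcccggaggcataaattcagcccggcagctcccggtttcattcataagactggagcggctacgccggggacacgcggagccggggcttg
Fos: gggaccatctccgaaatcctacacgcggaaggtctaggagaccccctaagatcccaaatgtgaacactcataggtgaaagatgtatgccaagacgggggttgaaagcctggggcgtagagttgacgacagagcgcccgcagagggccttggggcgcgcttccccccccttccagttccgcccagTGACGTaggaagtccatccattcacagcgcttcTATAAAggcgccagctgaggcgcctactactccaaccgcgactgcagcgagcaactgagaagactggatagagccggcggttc
Searched on both strands were the CArG box, to which SRF binds, the AP-1 motif TGANTCA, the cyclic AMP response element TGACGTCA and its shorter part TGACGT, the EGR motif GCGNGGGCG, the TCF/LEF motif CTTTGAT and the TATA motif TATAAA. Any match to TGACGTCA is also a match to TGACGT.

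In the Egr2 window the capitals are a CArG box at positions -72 to -63 and TGACGT on the opposite strand at -56 to -51. The Egr2 table entry has 5 windows for different starts, and 4 of them hold a CArG box, which is the same site in 3 overlapping windows and another site in the remaining one. CArG boxes were found in 1.63% of the 32851 windows in the table. Of the 7 members with a window only Egr2 had one. Egr1, Egr3 and Fosl1 had no window, and sites more than 250 bases before a start were not searched. The Fosb window holds the EGR motif GCGGGGGCG at -50 to -42. Fosl2 holds the same letters at -79 to -71, and 5.55% of all windows hold an EGR motif. The Fos window holds TGACGT at -66 to -61, a motif in 7.51% of all windows, and TATAAA at -33 to -28, a motif in 13.6%. No match to the AP-1, TCF/LEF or full TGACGTCA motif was found in the windows of the 7 members, against 7.81%, 3.73% and 1.79% of all windows. These matches describe the letters of the windows and say nothing of binding.

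The members did not move as a block. Egr2 was much higher in the array labelled deficient, Fosl1 slightly higher, Fosb lower, and the other 7 lay within 1.5-fold. Of the 10 members 2 were counted as higher, as were 7.54% of all genes at the floor, and 1 as lower, as were 8.81% of those genes. The background depends on scaling: higher and lower genes were 11.5% and 4.51% after centring, 8.89% and 6.93% after quantile normalization, and 9.41% and 6.26% after loess, all 3 described further on. At 2-fold the counts were 1 higher (2.96% of all genes) and 1 lower (1.59% of all genes). The latter, Fosb, fell short of 2-fold after centring, with 0 members and 0.929% of all genes lower, and it lay under a floor at the 75th percentile. The members' median difference was 0.14, and 7 of the 10 were above 0, as were 41.1% of all genes. After centring the median was 0.29, the same count was above 0 and the share of all genes was 58.1%. A floor at the 75th percentile, which leaves out dimmer members such as Fosb, gave 0.32. From Fosb to Egr2 the differences spanned 2.85 on the log2 scale.

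**Figure D1:**
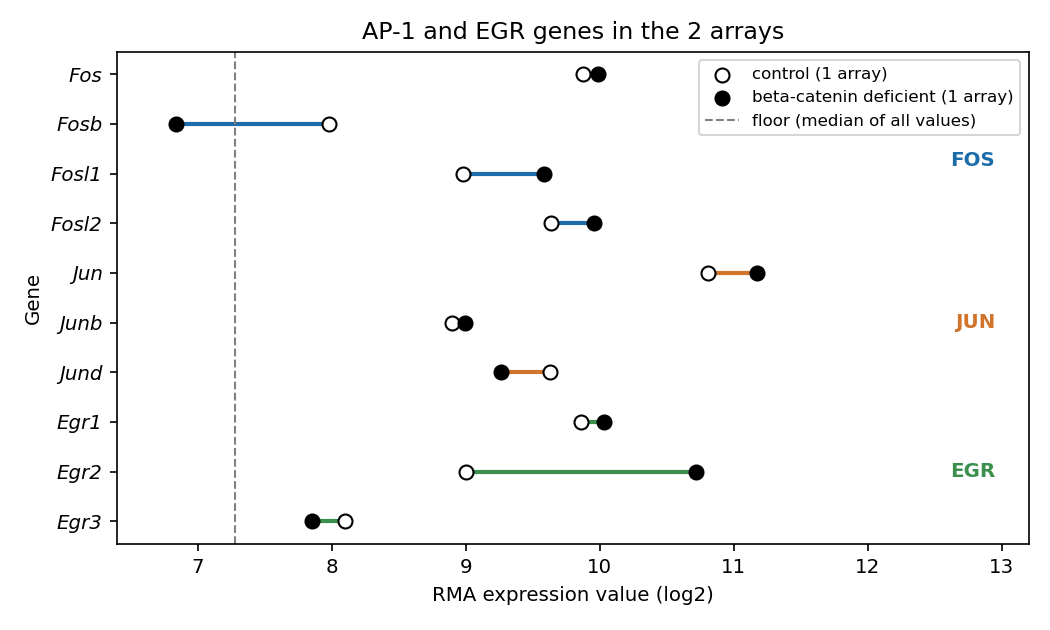
RMA expression value (log2, horizontal axis) of each of the 10 genes in the control array (open circles) and the array labelled beta-catenin deficient (filled circles), joined by a line coloured by family, with the floor of 7.28 dashed. Egr2 has the longest line, from 9.004 to 10.7, and Fosb runs the other way, from 7.98 to 6.84 and across the floor.

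The FOS family held both a higher and a lower gene. Fosb was 7.98 in control and 6.84 in the array labelled deficient, a difference of -1.14, or 2.21-fold lower. Its second value lies under the floor, so the size of the difference rests on a dim signal. Fosb encodes an activating FOS protein whose truncated form, delta FosB, is known for its long life. The difference ranked 102nd from the bottom of the 10657, and the 2306 genes within 0.5 log2 units of its mean level had a median of -0.12.

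Fosl1 was 8.98 in control and 9.59 in the array labelled deficient, a difference of 0.61, or 1.53-fold, just past the 1.5-fold line. It encodes FRA1, which lacks the activation domain of FOS and tends to last longer after a stimulus. Fosl2, which encodes the related FRA2, was 9.64 in control and 9.95 in the other array, a difference of 0.32. Both FRA genes were thus above 0, but only Fosl1 passed the line. Fos itself, the member induced fastest and lost fastest after a stimulus, was 9.88 in control and 9.99 in the other, a difference of 0.12. Fos and Fosb, usually induced together, therefore stood 1.26 apart in their differences.

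The JUN family was nearly level. Jun, the strongest activator among the JUN proteins, was 10.8 in control and 11.2 in the array labelled deficient, a difference of 0.37. Junb, which can oppose Jun at some promoters and is a macrophage activation gene, was 8.897 in control and 8.997 in the other, a difference of 0.10. Jund, the member present most steadily in resting cells, was 9.63 in control and 9.26 in the other, a difference of -0.37. None of the 3 reached 1.5-fold, and Jun and Jund differed by about the same amount in opposite directions. Jun ranked 1501st from the top of the 10657 differences and Jund 2209th from the bottom.

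Egr2 stood out in the EGR family. It was 9.004 in control and 10.7 in the array labelled deficient, a difference of 1.71, or 3.27-fold higher. Both values were above the floor. It ranked 84th from the top of the same 10657, and the 2252 genes within 0.5 log2 units of its mean level had a median of -0.09. Egr2, also called Krox20, is best known for myelination, and in macrophages it is induced by CSF1 and in alternative activation.

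The other EGR genes did not follow Egr2. Egr1, the family's prototype and usually the first to be induced, was 9.86 in control and 10.03 in the array labelled deficient, a difference of 0.17. Egr3, which is itself a target of other EGR proteins in several cell types, was 8.10 in control and 7.86 in the other, a difference of -0.25. Egr4, which is not among the 10 members, was under the floor in both arrays, at 6.82 and 6.67. The EGR family thus ranged over 1.96 in its differences, against 1.75 in the FOS family and 0.74 in the JUN family.

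**Figure D2:**
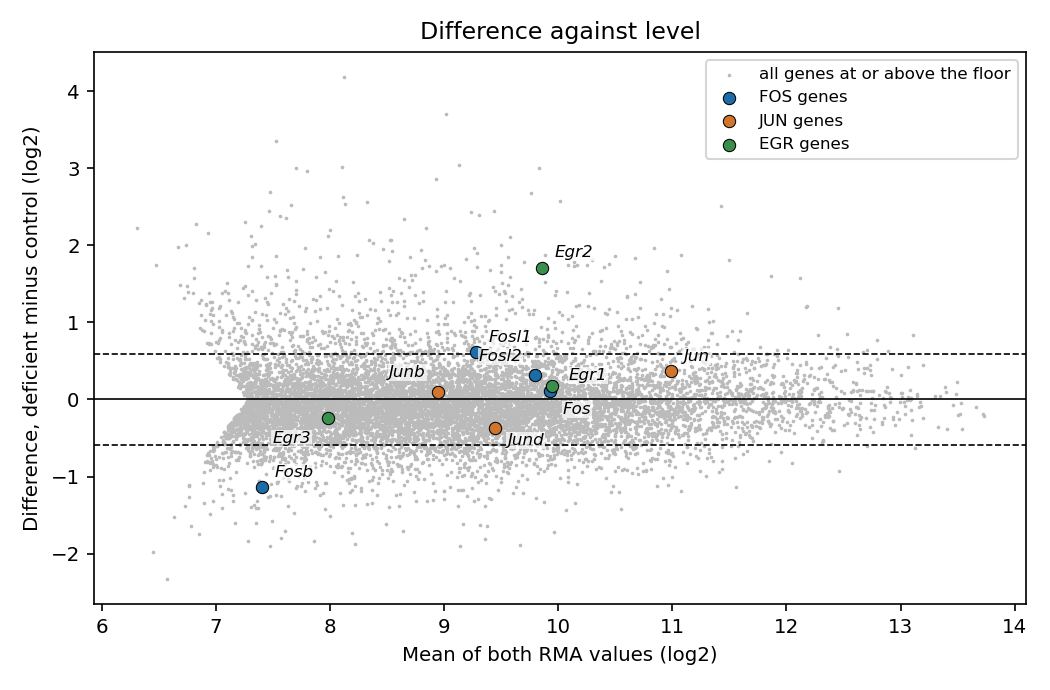
Difference between the arrays (deficient minus control, log2) against the mean of both values (log2) for the 10657 genes at or above the floor (grey) and the 10 members (coloured by family), with 1.5-fold dashed. Egr2 (1.71) lies above the main cloud and Fosb (-1.14) lies at its lower edge among dim genes, while Fosl1 (0.61) sits on the upper line.

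The scaling of the arrays did not alter which members passed 1.5-fold. When the differences were centred on the median of all genes, which is -0.15, each difference moved up by that amount. Egr2 was then 1.86, Fosl1 was 0.76 and Fosb was -0.99, just short of 2-fold. Quantile normalization gave 1.75, 0.67 and -1.05 for the same genes, and subtraction of a loess curve of difference on level gave 1.80, 0.70 and -1.04. No member changed sign under these scalings. Egr3 came nearest, at -0.10 after centring.

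**Figure D3:**
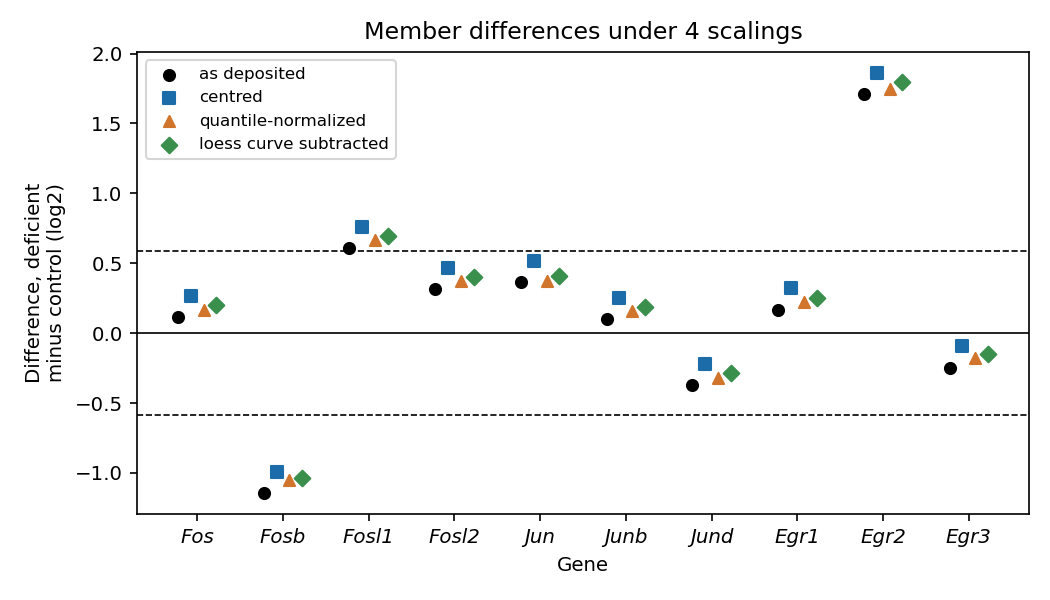
Difference of each member (deficient minus control, log2, vertical axis) with the values as deposited (circles), centred (squares), quantile-normalized (triangles) and after subtraction of a loess curve (diamonds), with 1.5-fold dashed. Egr2 and Fosl1 stay above the upper line and Fosb below the lower line under all 4, while the other 7 stay between the lines.

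Upstream of the members, most genes from the CSF1 receptor to Ras, activators and inhibitors of Ras included, lay within 1.5-fold, 12 of 14. Csf1r, the CSF1 receptor, was 12.25 in control and 12.35 in the array labelled deficient, a difference of 0.10. Of 14 genes of this step at or above the floor, 0 were counted as higher and 2 as lower (14.3%, against 8.81% of all genes), and the median was -0.26. Below 0 were 12 of them, as were 58.9% of all genes. After quantile normalization these were 12 of 14 and 52.4%, after centring 8 of 14 and 41.9%, and after loess 9 of 14 and 50%. The lowest were the Ras exchange factors Rasgrp3 (a difference of -1.90, from 10.09 to 8.19) and Sos2 (-0.86) and the Ras inhibitor Nf1 (-0.55), and the highest were the adaptor Shc1 (0.16), Csf1r and Rasa1 (-0.05, positive after centring and loess). Activators and an inhibitor of Ras were thus both among the lowest.

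Of the MAP kinases that switch on immediate early genes 15 of 18 lay within 1.5-fold. None was counted as higher and 3 were as lower (16.7%, against 8.81% of all genes), or 2 under each of the 3 rescalings. Below 0 were 14 of the 18, as were 58.9% of all genes, and the median was -0.26. The count was also 14 under each rescaling, against 41.9%, 52.4% and 50% of all genes after centring, quantile normalization and loess. The lowest were Rps6ka5, a nuclear kinase of histone H3 and CREB also called MSK1 (-1.01), Map2k6, an activator of p38 (-0.76, ending under the floor at 6.69) and Rps6ka3, an RSK kinase downstream of ERK (-0.61, but within 1.5-fold under each of the 3 rescalings). The highest were Mapk7, also called ERK5 (0.32), Map3k8, the kinase that links Toll-like receptors to ERK (0.30), and the ERK activator Map2k1 (0.21). After centring the medians of both these lists were -0.11.

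SRF binds the CArG boxes of immediate early genes and recruits its cofactors there. Of these 6 genes 1 was counted as lower (16.7%, against 8.81% of all genes) and 0 as higher (against 7.54%). The actin-responsive cofactor Mrtfa was -0.84, from 9.95 to 9.11. Srf was -0.17, the ternary complex factors Elk4, Elk3 and Elk1 were -0.47, -0.19 and 0.24, and Mrtfb was -0.05. The median of the 6 was -0.18, and 5 of them were below 0, as were 58.9% of all genes. Under each rescaling 4 were, against 41.9%, 52.4% and 50% of all genes after centring, quantile normalization and loess. Mrtfb, whose 3 transcript clusters disagreed in sign, turned positive under each rescaling.

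Negative feedback genes of the pathway, which ERK signalling itself induces, went both ways. Of 15 genes 3 were counted as higher (20%, against 7.54% of all genes) and 1 as lower (6.67%, against 8.81%). Their median was -0.08. Errfi1, an inhibitor of EGF receptor kinases, was 10.15 in control and 12.01 in the array labelled deficient, a difference of 1.87, and the Sprouty genes Spry4 (0.91, from 7.11, under the floor) and Spry1 (0.81) followed. Dusp4, a nuclear phosphatase of MAP kinases, was lowest at -1.18, from 8.79 to 7.61, before Spred1 (-0.34) and the phosphatase Dusp2 (-0.33). The median of this list turned positive under centring, at 0.08.

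Other immediate early genes went both ways, at shares near those of all genes. Of 29 at or above the floor 3 were counted as higher and 3 as lower (10.3% each, against 7.54% and 8.81% of all genes), 12 were above 0, and the median was -0.08, the same as that of all genes to 2 decimals. The matricellular genes Ccn1 (1.83, from 9.76 to 11.59) and Ccn2 (1.21) and the kinase Pim1 (0.79) were highest. The lowest were the transcription factor Klf4 (-0.89), the RNA-decay factor Zfp36l1 (-0.68) and the NF-kB inhibitor Nfkbia (-0.61). Nfkbia under each rescaling, and Zfp36l1 after centring, lay within 1.5-fold. The list's median was 0.07 after centring and 0.01 after loess.

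Leucine zipper factors related to AP-1, outside the FOS and JUN families, lay mostly within 1.5-fold. Of 12 at or above the floor 1 was counted as higher (8.33%, against 7.54% of all genes) and 0 as lower (against 8.81%). Their median was 0.12, and 8 of the 12 were above 0, as were 41.1% of all genes. After centring 11 of 12 were (58.1% of all genes), after quantile normalization 11 of 13 (47.5%) and after loess 10 of 12 (50%). Maf, a factor of mature macrophages, was 10.86 in control and 11.52 in the other array, a difference of 0.66. Atf3, a stress-induced partner of Jun, followed at 0.25 and Mafk at 0.23, and Atf2, Creb1 and Maff were lowest at -0.17, -0.13 and -0.08, of which Creb1 turned positive after centring and Maff under each rescaling. The 5 genes of Jun turnover and coactivation ranged from the ubiquitin ligase Itch (-0.25) to Cop1 (0.08), with Det1 (-0.20), Fbxw7 (-0.06) and Cops5 (0.04) between them. None reached 1.5-fold, whereas 7.54% of all genes did upward and 8.81% downward. Fbxw7 turned positive under each rescaling, and Cop1 had another transcript cluster at -0.08.

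The corepressors of the EGR proteins differed in opposite directions, both within 1.5-fold. Nab2, which EGR proteins induce and which then represses them, was 9.68 in control and 10.13 in the array labelled deficient, a difference of 0.45. Nab1, the more evenly expressed of the pair, was 10.34 in control and 9.88 in the other, a difference of -0.46. Among the 8 genes listed as EGR targets, which include both, 0 passed 1.5-fold in either direction with the values as deposited. Over all genes 7.54% passed it upward and 8.81% downward. The median of the 8 was -0.22. The tissue factor gene F3 was 0.19, whereas Icam1 (-0.53), Tgfb1 (-0.42), Pdgfa (-0.24), Cd44 (-0.19) and Fgf2 (-0.14, positive after centring) were below 0. Nab2 reached 0.60, past 1.5-fold, after centring.

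Genes listed as AP-1 targets included several matrix genes past 2-fold. Of 15 at or above the floor 5 were counted as higher and 1 as lower, against 7.54% and 8.81% of all genes, with a median of 0.15. Without Fosl1, itself a listed target, 4 of 14 were higher and the median was 0.05. The collagenase Mmp13 was 8.72 in control and 11.30 in the array labelled deficient, a difference of 2.58, and the macrophage elastase Mmp12 (1.18) and gelatinase Mmp9 (1.07) followed. The lowest were the cytokine Tnf (-0.68, within 1.5-fold after centring), Ptgs2, the inducible cyclooxygenase (-0.42), and Cd44 (-0.19). The higher genes were thus matrix proteases and Timp1 (1.01), a protease inhibitor, and the inflammatory genes among the targets went both ways, with Il1b at 0.44 (0.59 after centring) and Ccl2 at 0.21.

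**Figure D4:**
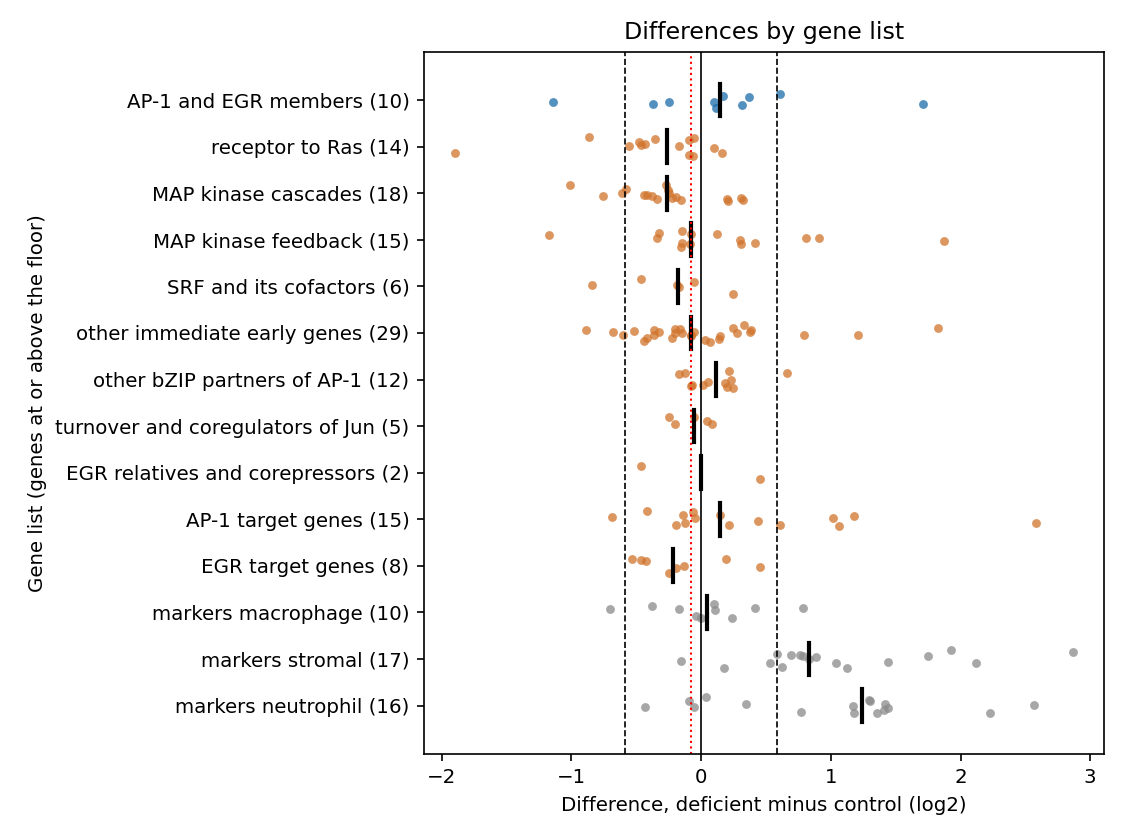
Difference (deficient minus control, log2) of each gene at or above the floor, grouped by list with the number of genes in brackets. Black bars are list medians, dashed lines are 1.5-fold and the red dotted line is the median of all genes (-0.08). The medians of the 10 members (0.14) and the pathway lists lie between -0.26 and 0.15, and those of the stromal (0.83) and neutrophil markers (1.24) lie to the right.

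Most markers of stromal cells and neutrophils were higher in the array labelled deficient. Of 17 stromal markers at the floor 14 were counted as higher in the array labelled deficient and 0 as lower, and their mean log2 level was 8.84 in control and 9.90 in the other. Of 16 neutrophil markers 11 were higher and 0 lower, with means of 8.53 and 9.52. Over all genes the shares were 7.54% higher and 8.81% lower. The floor was reached only through the array labelled deficient by 2 stromal and 4 neutrophil markers, and only through control by 1 stromal marker. It fixed the direction of these markers, which are kept in the counts and means. Fibroblasts and neutrophils are also known to express AP-1 genes, and fibroblasts to express EGR genes, Mmp13, Timp1, Ccn1 and Ccn2. The part of these cells in the differences of Egr2, Fosl1 and Fosb, and in those of the target and feedback genes, was not tested.

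Markers of other lineages reached the floor in part. Of 8 mast cell and basophil markers 3 reached the floor, all 3 only through the array labelled deficient. They were counted as higher, but the floor fixed their direction, and without a floor the median of all 8 was 0.05. Of 9 dendritic cell markers 3 reached the floor, with 2 higher and 1 lower. The floor was reached by 3 of 8 T and NK cell markers (1 higher, 0 lower), by 3 of 6 B cell markers (0 higher, 0 lower) and by 6 of 9 endothelial markers (1 higher, 1 lower). Of 7 erythroid and megakaryocyte markers 5 reached it, 3 higher and 1 lower. Only through the array labelled deficient did 1 dendritic, 1 T and NK cell, 2 endothelial and 1 erythroid and megakaryocyte marker reach it. Only through control did 1 dendritic, 1 endothelial and 1 erythroid and megakaryocyte marker. The floor fixed the direction of all these too. Over all genes at the floor 7.54% were higher and 8.81% lower. The platelet chemokine genes Ppbp (10.17 and 12.68) and Pf4 (11.8 and 12.3) and the dendritic and myeloid gene Itgax (9.61 and 11.14) were bright in both arrays. RMA gives no value of 0, so no marker can be called absent.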

How the data were processed

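Each column holds log2 values per transcript cluster that the authors deposited, made with RMA per the submitters' processing notes. RMA's version and settings, and whether 1 run made both columns, were not given in the sources used here. Values were taken as log2 from their range, 2.12 to 14.1. Column medians were 7.31 (control) and 7.24. Of 25917 rows, 21624 had a single symbol in GEO's platform annotation, 1568 several and 2725 none. The row with the highest mean was kept per gene. The table keeps no depth, and the number of arrays limits the precision.

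Differences, counts and medians were computed in Python 3.11.15 and tested on simulated data. No p-value was computed. The 10 members, the 10 pathway lists and the 9 marker lists were chosen with earlier results of these data known. Of 237 listed symbols, 14 had no row under that single symbol and are not used here. All members, Ctnnb1, Axin2 and, per pathway list, the 3 highest and 3 lowest genes at or above the floor (all in lists of up to 8) are named. For marker lists, counts and means are given. Timp1, Il1b, Ccl2, Egr4, Ppbp, Pf4 and Itgax were added after their values were seen. The alternatives tried were other floors, centring, quantile normalization, loess (span 0.3), averaging rows, the mean over members and leaving out each member. Motifs were searched in RefSeq windows on GRCm38.p6.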

Additional observations from a re-analysis of the deposited data

How the results depend on the processing

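No paired analysis was possible because each group had 1 array. The same 3 members passed 1.5-fold and 7 were above 0 under all 4 scalings. Averaging rows could not alter a member, since each had 1. The members' median of 0.14 was 0.32 with the floor at the 75th percentile and 0.29 after centring, and leaving out each member gave 0.12 to 0.17. With the higher floor, which removes Fosb, the count of members lower by 1.5-fold, and by 2-fold, was 0 in place of 1, and after centring the 2-fold count was 0. Without a floor the share of all genes past 1.5-fold upward was 4.98%, and past 2-fold 1.77%. After centring 11.5% passed 1.5-fold upward, 4.51% passed it downward and 0.929% passed 2-fold downward. Without a floor the dendritic marker median of 0.94 was -0.24 and the T and NK cell median of 0.56 was -0.52. The mast cell and basophil median of 1.98 was 0.05, whereas the B cell median of 0.32 was 0.45. The cause of these shifts was not tested beyond the genes each floor removes. The medians of the feedback, Jun turnover and other immediate early lists, all near 0, turned positive after centring. No spread between cultures could be set against any of these values.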
